A study of Rattus norvegicus with 12 samples.

Results

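Fatty acid and ketone body oxidation was followed through 41 genes whose enzymes and carriers activate, import, shorten and burn fatty acids or handle ketone bodies. A probe set, the group of short DNA features that reads one transcript on the array, was taken for a member where the array annotation named that gene and no other. By this rule 36 of the 41 genes had 65 probe sets of their own, out of 8740 probe sets and 4736 genes named singly on the array, and Crat, Etfb, Eci2, Oxct1 and Acaa1a had none. RNA came from CC531, an established rat colon carcinoma line grown in culture, with 1 array for each of 12 conditions. Untreated cells were taken after 2 and 24 h, and cells given 4.5 mM butyrate or 3 mM aspirin were taken after 2, 6, 12, 16 and 24 h. No label says that arrays came from separate cultures, and the p-values therefore reflect only how these 12 arrays vary, hours of treatment included.

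Fatty acids are joined to coenzyme A by acyl-CoA synthetases, passed into mitochondria as carnitine esters, and shortened there in repeated rounds by a dehydrogenase, a hydratase, a second dehydrogenase and a thiolase. Peroxisomes run a related cycle for very long and branched chains. Butyrate, a short-chain fatty acid made by gut bacteria, is itself burned by this pathway and is a main fuel of the colon's lining cells. It is also known as an inhibitor of histone deacetylases, while aspirin is known as an inhibitor of cyclooxygenases.

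The deposited intensities had the same trimmed mean on every array, and 21.6 to 25.6% of them were negative. Values under 91 were raised to that floor before log2, and 13.4 to 21.1% of the tested values on an array lay there. All 5 epithelial markers on the array (Krt8, Krt18, Krt19, Epcam and Cldn3) read between 5649 and 21428.5 by their brightest probe sets. Dimmer probe sets of Krt19 and Cldn3 went down to 1845 and 2159. With butyrate Krt19 read 11791.5 to 17612.5, against 5858 and 9021 untreated. Krt18 read 13550.5 to 17105, against 20103 and 20258.5 untreated, and Epcam 8234 to 12088, against 13591 and 15272. For Krt8 and Cldn3 butyrate overlapped untreated. Of 4 intestinal markers only Lgals4 was above the floor on all 12 arrays (1352 to 5656), and the intestinal factor Cdx1 was below it on all 12. Lgals4 read 2311 and 2543 untreated, 5656, 5288, 3662, 2689 and 1352 with butyrate from 2 to 24 h, and 1562.5 to 5058 with aspirin. Car2 read -2.7 and 260 untreated, 308, 608, 411, 695 and 794.5 with butyrate, and 88.7 to 406 with aspirin. Its other probe set was below the floor on all 12 arrays, and Fabp2 reached only 149. None of the 5 blood, 3 endothelial or 6 striated muscle and brown fat markers was above the floor on every array, and the highest reading among them was 466. Of 7 fibroblast and smooth muscle markers 5 were above the floor on all 12 arrays: Vim (2286 to 4348.5), Col1a1 (319 to 802), Col1a2, Pdgfra and Acta2. A dimmer Col1a1 probe set read 159 and 114 untreated, 235, 515, 797, 871 and 1615 with butyrate from 2 to 24 h, and 58.4 to 123 with aspirin. In the other Col1a1 probe sets butyrate overlapped untreated. The Acta2 reading (1019 to 4420) came from 1 of its 3 probe sets, another was negative on all 12 arrays, and Tagln reached only 127. By brightest probe sets the list summed to 8671 to 9137 untreated, 5915 to 8063 with butyrate and 6124 to 8945 with aspirin, with values under the floor raised to it. Of 8 hepatocyte markers Cyp2e1 alone was above the floor on all 12 arrays (227 to 522), while Alb reached 190 and Ttr 100.4. Serpina1, a secreted protease inhibitor, read 114 and 103 untreated, 85.7, 128, 234, 718.5 and 1456 with butyrate from 2 to 24 h, and 236, 90.9, -51.9, -4.9 and 203 with aspirin, and its other probe sets were also highest at 16 and 24 h of butyrate. The hepatocyte list summed to 1440 to 1516 untreated, 1162 to 2685 with butyrate and 1164 to 1464 with aspirin. Its part in the butyrate changes described here was not tested. Each array averages a whole culture, so fewer cells of one state and less RNA per cell cannot be told apart.

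Butyrate was accompanied by higher levels of a broad set of these genes. Of the 27 members bright enough to test, 9 rose against untreated cells and 0 fell, each member read by its brightest probe set (limma, Benjamini-Hochberg adjusted p under 0.05 over 6118 probe sets). The 9 were Acadm, Cpt1a, Acadvl, Cpt2, Ech1, Acsl3, Bdh1, Hsd17b4 and Hadhb, with rises from 2.32-fold to at least 4.59-fold. Over all tested probe sets 7.78% rose and 3.92% fell. At an unadjusted p under 0.05, 15 members were higher and 1, Acsl5, was lower, against 16.4% and 12.4% of all probe sets. The median log2 change was 0.55 over the 27 members and 0.00 over all tested probe sets, and 25 of the 27 changes were positive, against 50.5% of all. All 5 butyrate arrays lay above both untreated arrays for 14 members and below both for 0, where 14.7% and 13.2% of all probe sets did so. Cpt2 alone kept its call with any single array left out. Without the untreated 2 h array, without the butyrate 16 h array, or with only the 2 groups in the fit, 4 calls were made, without the untreated 24 h array or without the butyrate 12 h array 6, and on the 2 and 24 h arrays alone 0.

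**Figure D1:**
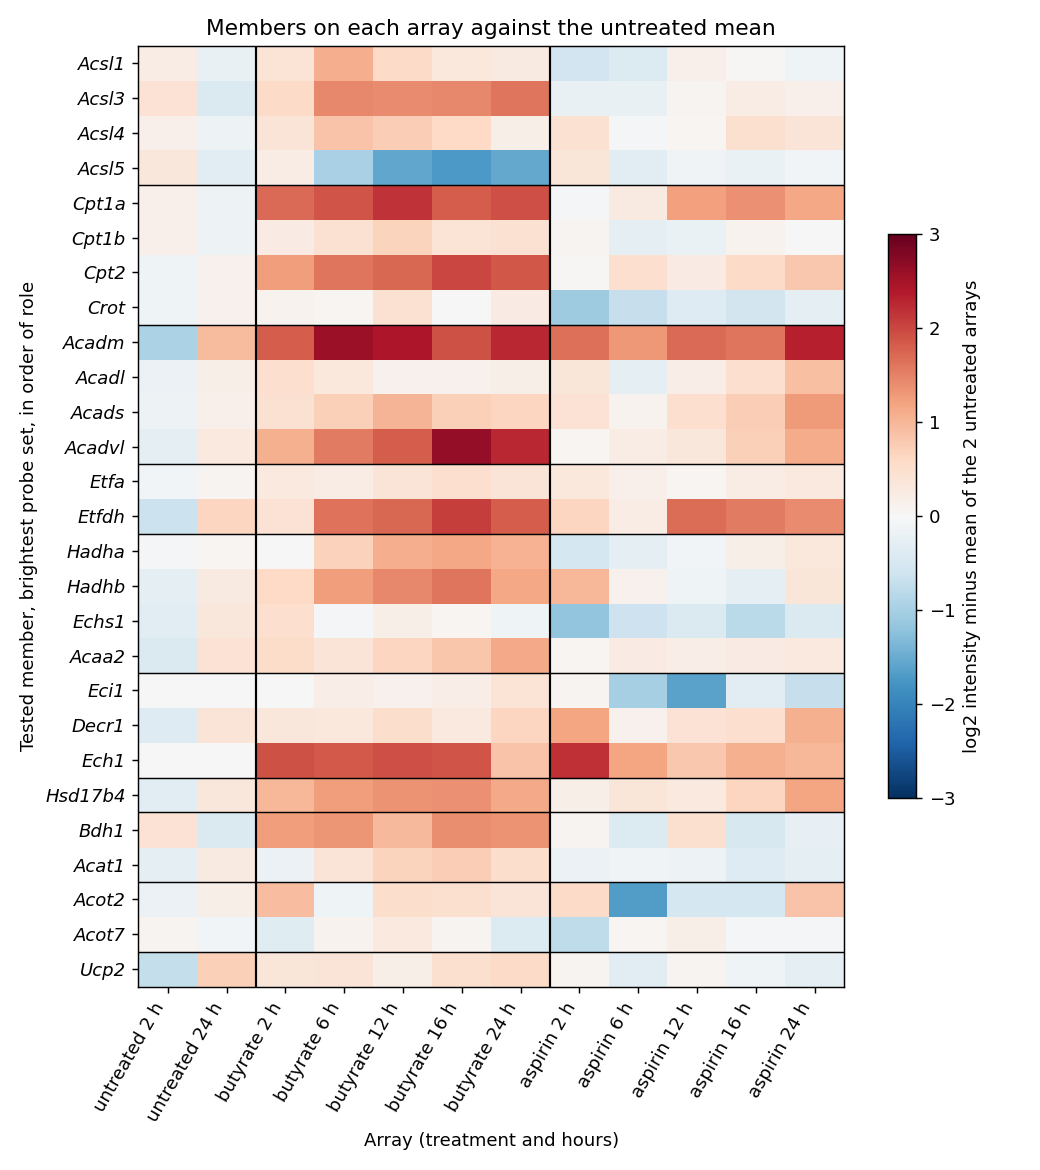
Heat map of the 27 tested members (rows, brightest probe set, in order of role with lines between roles) on the 12 arrays (columns). Colour gives log2 intensity minus the mean of the 2 untreated arrays. The 5 butyrate columns are mostly red, with Acsl5 blue from 6 h, and the aspirin columns are paler, with Acadm and Ech1 red on all 5.

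Across the hours the members' median stood 0.47, 0.69, 0.67, 0.70 and 0.64 above the untreated mean on the log2 scale at 2, 6, 12, 16 and 24 h of butyrate. Between 23 and 26 of the 27 members were above that mean on each of these arrays. The same median with aspirin was 0.09, -0.05, 0.16, 0.22 and 0.33, with 13 to 19 members above. The butyrate medians were thus all higher than the aspirin ones, and the 2 h butyrate array already stood apart. The 2 untreated arrays lay 0.12 to either side of their mean. Set against untreated cells of that hour, the butyrate median was 0.74 at 2 h (24 of 27 members higher) and 0.48 at 24 h (23 of 27), and the aspirin median 0.32 (18 of 27) and 0.27 (21 of 27).

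**Figure D2:**
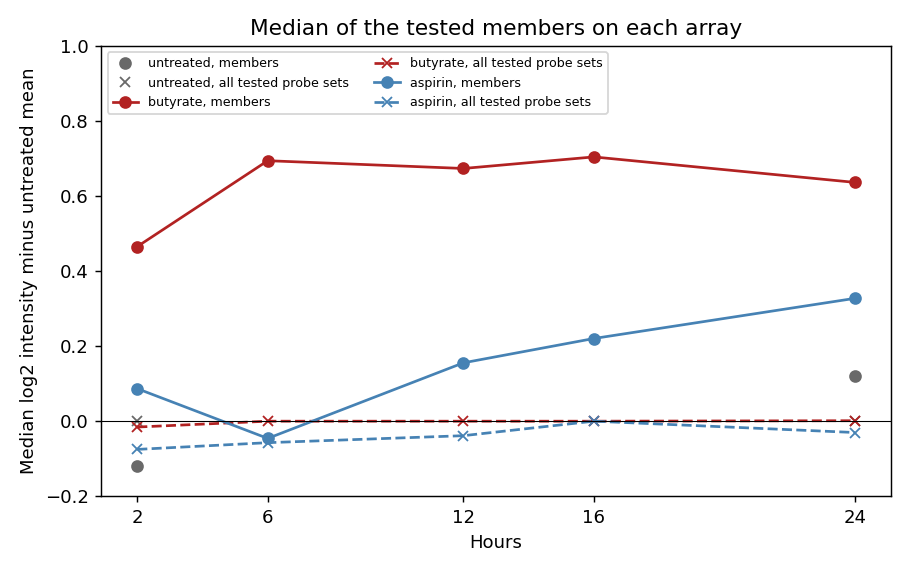
Median log2 intensity minus the untreated mean (vertical axis) against hours (horizontal axis), for the 27 tested members (circles) and all tested probe sets (crosses), 1 array per point. The members' median with butyrate runs from 0.47 to 0.70, with aspirin from -0.05 to 0.33, while that of all probe sets runs from -0.08 to 0.00.

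The acyl-CoA synthetases, which trap fatty acids as coenzyme A esters, moved in both directions. Acsl3, which serves lipid droplets and the endoplasmic reticulum, read 993 and 538 on the untreated arrays (2 and 24 h), 1081, 1982, 1959, 1976 and 2231 with butyrate from 2 to 24 h, and 623, 625, 776, 855 and 819 with aspirin. The butyrate readings were all above the untreated ones, at 2 h by a small margin, and above aspirin at all 5 hours, while aspirin and untreated overlapped. Acsl3 rose 2.45-fold with butyrate (log2 1.29 ± 0.31 SE, limma adjusted p = 0.0208) and was 2.44-fold above aspirin at matched hours (log2 1.29 ± 0.16, limma adjusted p = 0.00722). Without the untreated 24 h array its rise against untreated was 0.85 with a limma adjusted p of 0.179.

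Acsl5, the synthetase typical of intestinal epithelium, went the other way. Its brightest probe set read 3034 and 1871 untreated, 2794, 1214, 803, 718 and 816 with butyrate and 3074, 1922, 2227, 2082 and 2249.5 with aspirin. The 2 h butyrate array lay among the untreated ones and the later 4 lay below them. The change over all 5 hours, log2 -1.12 ± 0.43, did not pass the test (limma adjusted p = 0.105), but the gene was lower than with aspirin (log2 -1.05 ± 0.24, limma adjusted p = 0.0285). Acsl5 kept this call in 2 of 10 fits with an array left out. Its log2 intensity fell by 0.54 ± 0.09 per doubling of the hours with butyrate (limma adjusted p = 0.011), which became adjusted p = 0.388 without the 2 h butyrate array. The other Acsl5 probe set fell against untreated (log2 -1.26 ± 0.38, limma adjusted p = 0.0447), a call kept in 1 of 12 fits with an array left out (adjusted p = 0.245 without the untreated 2 h array). Its log2 slope per doubling of the hours was -0.51 ± 0.05 with butyrate and 0.02, slightly upward, with aspirin. That difference between the drugs, -0.53 ± 0.07, passed the test (limma adjusted p = 0.0225), while in the brightest probe set it was -0.43 (adjusted p = 0.124). The call was lost without the 2 or 16 h butyrate array (adjusted p = 0.123 and 0.0603), without the 16 or 24 h aspirin array (adjusted p = 0.0565 and 0.0604) and with hours on a linear scale (adjusted p = 0.0853).

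Acsl1 and Acsl4 did not pass against untreated. Their brightest probe sets changed by log2 0.53 ± 0.29 and 0.55 ± 0.23 with butyrate. The other Acsl1 probe sets gave 0.83, 0.57 and -0.16, and those of Acsl4 0.35 and 0.05. Against aspirin, 2 of the dimmer Acsl1 probe sets were higher, by log2 1.11 and 0.61 (limma adjusted p = 0.0476 and 0.0474). Both calls were lost in all 10 fits with an array left out and after median centring (adjusted p = 0.0678 and 0.36). For butyrate against aspirin these fits come in pairs with the same log2. Hour is a block there, so leaving out either array of an hour takes that hour out of the comparison. Acsl6 was too dim to test.

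The carnitine acyltransferases, which carry long chains across the mitochondrial membranes, included Cpt1a and Cpt2, which both rose. Cpt1a, the outer-membrane enzyme that sets the rate of entry, read 1031 and 842 untreated, 3040.2, 3436, 4168, 3299 and 3577 with butyrate and 914, 1126, 2197, 2422 and 2079 with aspirin. Butyrate stood above every untreated and aspirin array, and aspirin left the untreated range from 6 h on. The gene rose 3.74-fold with butyrate (log2 1.90 ± 0.34, limma adjusted p = 0.00442) and was 2.14-fold above aspirin (limma adjusted p = 0.0196). Cpt1a kept its call against aspirin in 2 of 10 fits with an array left out. With aspirin its change was log2 0.80 ± 0.34 (adjusted p = 0.411). Its aspirin slope was the one rise over time called in that drug, log2 0.41 ± 0.08 per doubling of the hours (limma adjusted p = 0.0496), against 0.07 ± 0.08 with butyrate. That call was made in 1 of 10 fits with an array left out (adjusted p = 0.172 without the 2 h aspirin array). The difference of the slopes did not pass (-0.35, adjusted p = 0.157).

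Cpt2, the inner-membrane partner that hands the chain back to coenzyme A, read 392 and 463 untreated, 1009, 1295, 1414, 1700.3 and 1557 with butyrate and 437, 602, 508, 636 and 746 with aspirin. The butyrate arrays overlapped neither other group. Cpt2 rose 3.23-fold (log2 1.69 ± 0.28, limma adjusted p = 0.00312) and was 2.38-fold above aspirin (log2 1.25 ± 0.13, adjusted p = 0.00565). The aspirin change was log2 0.44 ± 0.28 (adjusted p = 0.615).

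Crot, the peroxisomal octanoyltransferase, had probe sets that differed. The brighter read 710.3 and 837 untreated, 831, 803, 1067, 759.6 and 913 with butyrate and 371, 477, 594, 523 and 630.3 with aspirin. Here butyrate overlapped the untreated arrays and every aspirin array lay below both. Butyrate exceeded aspirin by log2 0.77 ± 0.16 (limma adjusted p = 0.0233), with 0.17 against untreated (adjusted p = 0.733). The call against aspirin was kept in 2 of 10 fits with an array left out. The dimmer probe set rose against untreated (log2 1.08 ± 0.33, adjusted p = 0.0486) and stood above aspirin (log2 1.07 ± 0.25, adjusted p = 0.0286), calls kept in 3 of 12 and 0 of 10 fits with an array left out. Cpt1b, the muscle form of the entry enzyme, changed by log2 0.45 ± 0.27 (adjusted p = 0.292), and its other probe set by at least 0.69, neither passing.

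**Figure D3:**
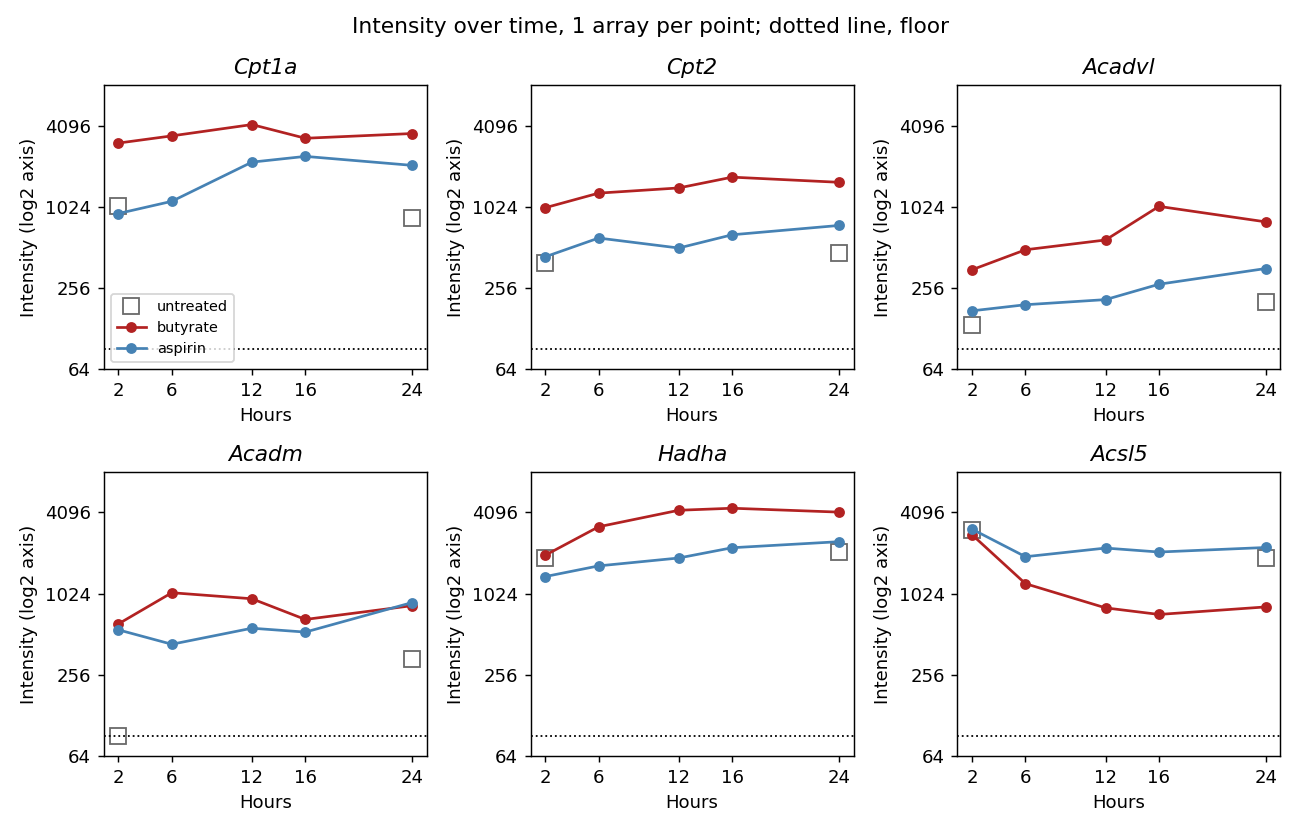
Intensity (log2 axis, values raised to the floor of 91, dotted) against hours for 6 members, 1 array per point, untreated as open squares, butyrate red, aspirin blue. Butyrate lies above aspirin at every hour for Cpt1a, Cpt2, Acadvl and Hadha and below it for Acsl5, while the Acadm curves cross by 24 h.

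The acyl-CoA dehydrogenases, which open each round and differ in the chain length they take, had 2 of 4 tested members rise. Acadm, for medium chains, read 79.2 and 334 untreated, the first below the floor, 611, 1040, 938, 659 and 834 with butyrate and 552, 432, 568, 532 and 879.8 with aspirin. Both treatments lay wholly above the untreated arrays and overlapped each other. Acadm rose at least 4.59-fold with butyrate (log2 at least 2.20 ± 0.44, limma adjusted p = 0.00865). With aspirin the change was at least 1.72 ± 0.44 (adjusted p = 0.256), and the difference between the drugs was 0.47 ± 0.23 (adjusted p = 0.184). The low untreated 2 h array weighed on these values: without it the butyrate change was 1.26 (adjusted p = 0.0875), and without the 24 h one the aspirin change was at least 2.66 (limma adjusted p = 0.00364).

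Acadvl, for very long chains, read 136 and 204 untreated, 351, 493, 582, 1033 and 793 with butyrate and 174, 193, 211, 274 and 358 with aspirin. Butyrate overlapped neither untreated nor same-hour aspirin readings, and was highest at 16 h. It rose 3.65-fold (log2 1.87 ± 0.43, limma adjusted p = 0.0157; adjusted p = 0.123 without the untreated 2 h array) and was 2.6-fold above aspirin (adjusted p = 0.00977). Acads, for short chains such as butyrate's own, changed by log2 0.71 ± 0.29 with butyrate (adjusted p = 0.127) and 0.61 ± 0.29 with aspirin (adjusted p = 0.476), and Acadl, for long chains, by 0.25 ± 0.26 and 0.34 ± 0.26. Neither passed. Acadsb, for branched short chains, was too dim.

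The promoters of the 4 members with the largest butyrate rises among those with a sequence are shown, with the stretch that Hadha shares with its neighbour Hadhb, as these are the members the results turn on (Hadha was added after its position was seen). Each is the 250 bases before the gene start in RefSeq, build GRCr8, 5′ to 3′ on the gene's strand, with matches to the searched motifs in capitals.
Acadm (chr2:245542865-245543114, strand -): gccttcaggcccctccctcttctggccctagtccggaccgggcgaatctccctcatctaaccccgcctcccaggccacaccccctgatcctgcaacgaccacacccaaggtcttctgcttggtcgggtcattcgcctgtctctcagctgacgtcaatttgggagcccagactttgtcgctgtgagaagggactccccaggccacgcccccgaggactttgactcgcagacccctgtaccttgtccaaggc
Cpt1a (chr1:209995910-209996159, strand +): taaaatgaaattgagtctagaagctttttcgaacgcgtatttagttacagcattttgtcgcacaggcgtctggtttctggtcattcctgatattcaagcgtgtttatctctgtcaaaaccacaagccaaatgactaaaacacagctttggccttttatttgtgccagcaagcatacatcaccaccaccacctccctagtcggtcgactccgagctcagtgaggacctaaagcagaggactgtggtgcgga
Acadvl (chr10:55236706-55236955, strand -): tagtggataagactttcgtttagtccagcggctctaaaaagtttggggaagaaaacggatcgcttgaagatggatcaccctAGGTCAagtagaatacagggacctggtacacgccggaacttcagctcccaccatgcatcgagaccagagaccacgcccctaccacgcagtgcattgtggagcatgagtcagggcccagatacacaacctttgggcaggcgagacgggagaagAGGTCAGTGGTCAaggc
Cpt2 (chr5:127910819-127911068, strand -): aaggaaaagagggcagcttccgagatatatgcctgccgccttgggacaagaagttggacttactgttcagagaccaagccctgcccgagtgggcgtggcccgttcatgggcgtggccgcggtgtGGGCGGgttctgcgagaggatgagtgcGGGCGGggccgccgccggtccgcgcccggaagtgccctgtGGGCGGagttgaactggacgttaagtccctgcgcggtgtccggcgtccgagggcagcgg
Hadha (chr6:31907551-31907800, strand +): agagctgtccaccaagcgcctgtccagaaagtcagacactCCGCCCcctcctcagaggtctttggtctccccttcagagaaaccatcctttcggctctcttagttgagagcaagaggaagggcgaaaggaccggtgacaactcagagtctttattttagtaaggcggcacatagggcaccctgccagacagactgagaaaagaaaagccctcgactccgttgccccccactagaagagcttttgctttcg

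Of the 36 members 31 had such a window. The search, on both strands, was for the GC box GGGCGG, the box CCAAT, the nuclear receptor hexamer AGGTCA, and that hexamer repeated after 1 base with up to 2 mismatches, the form read by peroxisome proliferator-activated receptors. A hexamer inside a repeat also counted as a hexamer. The repeat was found in 4 of the 31 members (12.9%: Acadvl, Etfa, Echs1 and Ucp3), in 3.15% of all 33469 promoters and in 2.79% of 3011 genes tested on the array. Of the tested members with a window 3 of 22 held it (13.6%), and of those that rose with butyrate 1 of 8, Acadvl. In Acadvl it had 1 mismatch and ended 5 bases before the start. The GC box was in 61.3% of the members, 30.5% of all promoters and 57.1% of the tested genes, and Cpt2 held 3. CCAAT was in 35.5% of members and 34% of all promoters, and AGGTCA in 16.1% and 14.1%. The Acadm and Cpt1a windows held none of the 4, which says only that these letters are not in them.

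Electron transfer flavoproteins take the dehydrogenases' electrons to the respiratory chain. Etfdh, the membrane oxidoreductase, had the larger change of the 2 tested. Its brightest probe set read 190.3 and 460 untreated, 402, 917, 976, 1242 and 1044 with butyrate and 461, 346, 949, 869 and 794 with aspirin. In both treatments the low arrays overlapped the untreated ones. The changes, log2 1.54 ± 0.50 with butyrate (limma adjusted p = 0.0628) and 1.10 ± 0.50 with aspirin (adjusted p = 0.449), did not pass. A dimmer Etfdh probe set stood above aspirin (log2 0.94 ± 0.16, adjusted p = 0.0141; 0.98 against untreated), a call kept in 4 of 10 fits with an array left out. Etfa, the flavoprotein's alpha subunit, changed by 0.36 ± 0.15 with butyrate, and by 0.17 in its other probe set, without passing.

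Hadha and Hadhb encode the 2 subunits of the mitochondrial trifunctional protein, which carries out the remaining steps on long chains. In the rat genome their starts lie 300 bases apart on chromosome 6, facing away from each other, so that their promoter windows share 200 bases. Hadha's brightest probe set read 1892 and 2070.1 untreated, 1971, 3202, 4243, 4393 and 4111 with butyrate and 1370, 1644, 1880.1, 2240 and 2483 with aspirin. At 2 h butyrate lay within the untreated range, and from 6 h on it was above every untreated and aspirin array. Its change against untreated was log2 0.80 ± 0.30 (adjusted p = 0.103), its difference from aspirin 0.87 ± 0.12 (limma adjusted p = 0.00851) and its butyrate slope 0.33 ± 0.05 per doubling of the hours (adjusted p = 0.0111; 0.365 without the 2 h butyrate array). Of the other Hadha probe sets, 1 rose against untreated (log2 0.93 ± 0.27, adjusted p = 0.0397; called in 3 of 12 fits with an array left out) and the other changed by 0.76 (adjusted p = 0.168). Both stood above aspirin, by 1.04 and 1.16 (adjusted p = 0.0109 and 0.00999), in 4 and 8 of 10 such fits.

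Hadhb read 957 and 1369 untreated, 1723, 2742, 3107, 3473 and 2578 with butyrate and 2282, 1252, 1044, 956 and 1483 with aspirin. Butyrate was above untreated on every array, and below aspirin at 2 h alone. Hadhb rose 2.32-fold (log2 1.21 ± 0.34, limma adjusted p = 0.0346), a call kept in 5 of 12 fits with an array left out. The call was lost without either untreated array and without any butyrate array later than 2 h (limma adjusted p = 0.0629 to 0.0876 for the latter). Quantile normalization and median centring also took it away (limma adjusted p = 0.052 and 0.0688). The difference of Hadhb from aspirin was 0.99 ± 0.33 (adjusted p = 0.0759).

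Echs1, the short-chain hydratase that also acts on butyrate's product, read 1295 and 2043 untreated, 2290.5, 1569.5, 1847, 1692 and 1496 with butyrate and 715, 1066, 1197, 928 and 1199 with aspirin. All aspirin arrays were below both untreated ones, and butyrate overlapped the latter. Echs1 was 1.75-fold higher with butyrate than with aspirin (log2 0.81 ± 0.21, limma adjusted p = 0.0398). Echs1 kept this call in 2 of 10 fits with an array left out. Against untreated it was 0.11 with butyrate and -0.70 ± 0.27 with aspirin (adjusted p = 0.834 and 0.404).

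Acaa2, the mitochondrial thiolase, read 734 and 1334 untreated, 1446, 1299.7, 1549.9, 1768 and 2166 with butyrate and 1036, 1177, 1128, 1178 and 1218 with aspirin. Both treatments overlapped the untreated arrays, while butyrate was above aspirin at every hour. That difference passed (log2 0.50 ± 0.13, limma adjusted p = 0.0399), and the change against untreated was 0.71 ± 0.26 (adjusted p = 0.0904). Acaa2 lost its call against aspirin in all 10 fits with an array left out and after median centring (limma adjusted p = 0.485). Hadh, the short-chain hydroxyacyl-CoA dehydrogenase, was not above the floor on any array.

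The auxiliary enzymes move or remove double bonds in unsaturated chains. Ech1, a dienoyl-CoA isomerase, read 184 and 184 untreated, 686, 661, 698, 677 and 335 with butyrate and 838, 419.8, 323, 386 and 365 with aspirin. Every treated array exceeded both untreated ones, with the 24 h butyrate array low among its group and the 2 h aspirin array high. Ech1 rose 3.21-fold with butyrate (log2 1.68 ± 0.40, limma adjusted p = 0.019; adjusted p = 0.0923 and 0.0867 without the untreated 2 and 24 h arrays). With aspirin it was 1.25 ± 0.40 (adjusted p = 0.361), and between the drugs 0.43 ± 0.26 (adjusted p = 0.274). Decr1, the dienoyl-CoA reductase, changed by 0.43 ± 0.30 with butyrate and 0.67 ± 0.30 with aspirin, and its other probe set by 0.53 and 0.57. Eci1, an enoyl-CoA isomerase, changed by 0.19 ± 0.39 and -0.71 ± 0.39. None of these passed, but the dimmer Eci1 probe set stood above aspirin by log2 1.44 ± 0.24 (adjusted p = 0.0135; at least 1.03 against untreated, adjusted p = 0.0682), called in 2 of 10 fits with an array left out.

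Of the members that are enzymes of the peroxisomal cycle itself only Hsd17b4, its multifunctional protein, was bright enough to test. It read 387 and 619.5 untreated, 981, 1159, 1246, 1268 and 1070.1 with butyrate and 553, 633, 604, 771 and 1113 with aspirin. Butyrate was above both untreated arrays throughout, and above aspirin up to 16 h but not at 24 h. It rose 2.33-fold (log2 1.22 ± 0.30, limma adjusted p = 0.022; adjusted p = 0.158 without the untreated 2 h array) and was 1.6-fold above aspirin (adjusted p = 0.0487). Hsd17b4 kept its call against aspirin in 2 of 10 fits with an array left out. Its other probe sets changed by 1.03, 0.64 and at least 0.90 against untreated, without passing. The oxidases Acox2 and Acox3 and the bifunctional enzyme Ehhadh were under the floor on all 12 arrays. A probe set shared by Acaa1a and Acaa1b, which counts for no member, read 688 and 939 untreated. With butyrate it read 1030 to 1336, and with aspirin 755 to 1262.

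Both tested ketone body enzymes were higher with butyrate than with aspirin. Bdh1, which interconverts acetoacetate and hydroxybutyrate, read 614 and 333 untreated, 1081, 1131, 888, 1198 and 1157 with butyrate and 476, 343, 628, 324 and 384 with aspirin. Butyrate overlapped neither group. Bdh1 rose 2.4-fold (log2 1.26 ± 0.33, limma adjusted p = 0.0259; 0.82 and adjusted p = 0.185 without the untreated 24 h array) and was 2.59-fold above aspirin (adjusted p = 0.0145).

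Acat1, the acetoacetyl-CoA thiolase, read 1599 and 2305 untreated, 1712, 2523, 3061, 3188 and 2789 with butyrate and 1705, 1783, 1725, 1473 and 1558 with aspirin. The untreated arrays bracketed the 2 h butyrate one, and butyrate was above aspirin at all 5 hours. The difference from aspirin was log2 0.66 ± 0.17 (limma adjusted p = 0.0406), the butyrate slope 0.23 ± 0.06 per doubling of the hours (adjusted p = 0.0437), and the change against untreated 0.43 ± 0.24 (adjusted p = 0.261). Acat1 kept its call against aspirin in 2 of 10 fits with an array left out, and that of its slope also in 2 of 10. Its other probe sets changed by 0.64 and 0.41 against untreated, and the first of them stood above aspirin (log2 0.80, adjusted p = 0.0317; called in 2 of 10 fits with an array left out).

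The thioesterases, which free fatty acids from coenzyme A, did not pass any test. Acot2, the mitochondrial form, read 256 and 329 untreated, 549.8, 264, 421, 402 and 378 with butyrate and 433, 86.9, 199.6, 202 and 526 with aspirin. The 3 groups overlapped, and its change was log2 0.44 ± 0.55 with butyrate (adjusted p = 0.658) and -0.26 ± 0.55 with aspirin. Its second probe set gave 0.06 and -0.15. Acot7 changed by -0.05 ± 0.25 with butyrate, and by 0.08 and 0.98 in its other probe sets. A probe set shared by Acot1 and Acot2, which counts for no member, read 275 and 475 untreated. With butyrate it read 369, -90.3, 63.2, 105 and 61, within the untreated range at 2 h and below it from 6 h on. With aspirin it read -62.1, 270, 208.5, 233.5 and 412, below the untreated range except at 24 h.

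Ucp2, an uncoupling carrier of the inner membrane, read 2747 and 7458 untreated, 5860.3, 5957, 5083, 6345 and 6793 with butyrate and 4806, 3549, 4759.8, 4159 and 3712 with aspirin. The untreated arrays spanned both treatments, and butyrate was above aspirin at all 5 hours (log2 0.52 ± 0.13, limma adjusted p = 0.0369). Ucp2 kept this call in 2 of 10 fits with an array left out. Its changes against untreated were 0.40 ± 0.28 and -0.12 ± 0.28, and 0.15 and -0.49 in the other probe set. Pdk4, the kinase that turns cells from glucose to fat, was below the floor on all arrays, as was Acot1, and Ucp3 was above it on 1. In all 9 members were left out as too dim, with no reading over 94.2 in their brightest probe sets.

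**Figure D4:**
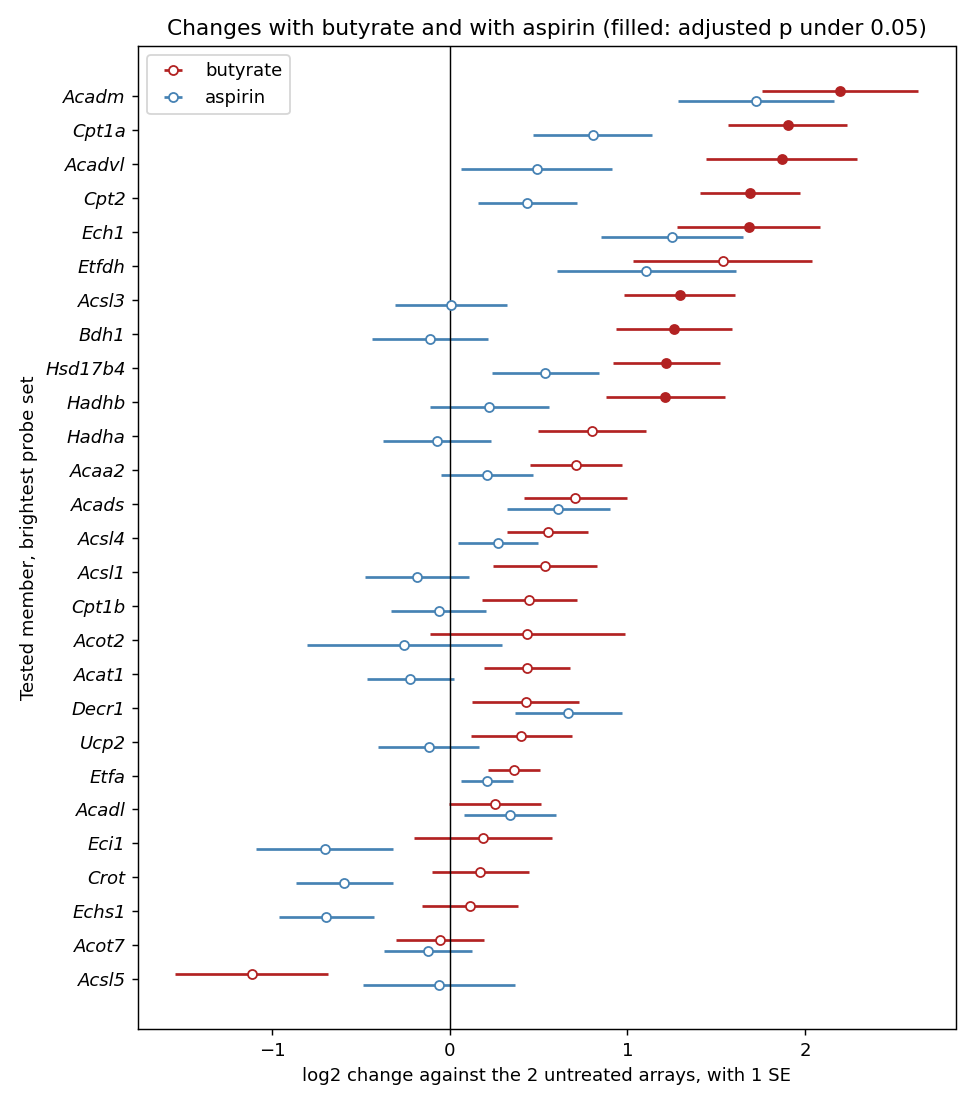
Log2 change against the 2 untreated arrays with 1 SE (horizontal axis) for the 27 tested members (vertical axis), butyrate red and aspirin blue, filled where the adjusted p is under 0.05. The 9 filled points are butyrate rises, from Hadhb at 1.21 to Acadm at 2.20, where Acadm's values are lower bounds in both treatments. No aspirin point is filled.

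With aspirin 0 of the 27 members passed against untreated (limma), with 5 higher and 2 lower at an unadjusted p under 0.05 (3.89% and 6.83% of all probe sets), and 0.0817% of all probe sets rose and 0.0654% fell. The members' median was 0.21 against -0.04 over all probe sets, and 15 of 27 changes were positive (21 after centring each array on its median). The largest values were Acadm at least 1.72, Ech1 1.25 and Etfdh 1.10. All 5 aspirin arrays lay above both untreated arrays for 2 members, Acadm and Ech1, and below for 2, Crot and Echs1, where 3.81% and 7.78% of all probe sets did so. Both treatments were set against the same 2 untreated arrays, so their values share that error.

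The direct comparison of the drugs at matched hours used no untreated array. In it 12 members were higher with butyrate and 1, Acsl5, was lower (limma), against 15.6% and 9.61% of all probe sets. The 12 were Acsl3, Cpt1a, Cpt2, Crot, Acadvl, Hadha, Echs1, Acaa2, Hsd17b4, Bdh1, Acat1 and Ucp2. The members' median was 0.66, and 0.10 over all probe sets. At all 5 hours 13 members were above aspirin and 1 below, where 19.9% and 13% of probe sets were. Doses differed, 4.5 mM against 3 mM, so the values compare these treatments and not equal amounts. Leaving out any 6, 12, 16 or 24 h array left 3 to 5 calls, with Acsl3 and Cpt2 called each time. As hour is a block, this also takes the partner array of that hour out of the comparison. The 10 fits with an array left out thus come in pairs with the same log2. Acsl3 and Cpt2 kept their calls in all 10, Acadvl in 9, Hadha in 8, Bdh1 in 4 and Acaa2 in 0. Cpt1a, Crot, Echs1, Hsd17b4, Acat1, Ucp2 and Acsl5 kept theirs in 2. Centring on the median left 6 higher and 2 lower, and turned the split of all calls from 61.8% higher to 28.5%. It took away the calls of Crot, Echs1, Acaa2, Hsd17b4, Acat1 and Ucp2, and added Decr1 as lower. Quantile normalization took away the same calls except that of Ucp2.

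Over time, 3 members rose along the log2 hours of butyrate, Acsl3 (slope 0.27 ± 0.07, limma adjusted p = 0.0433), Hadha and Acat1, and Acsl5 fell, where 4.79% of probe sets rose and 4.2% fell. With aspirin Cpt1a rose, by a call kept in 1 of 10 fits with an array left out, where 1.32% rose and 0.327% fell. The slopes differed between the drugs for 0 members by their brightest probe set (limma; at an unadjusted p under 0.05, 2 positive and 3 negative differences, against 8.71% and 9.48% of all probe sets), where 0.686% of all probe sets were called with a positive difference (butyrate slope minus aspirin slope) and 1.05% with a negative one. Without the 2 h butyrate array 0 of the butyrate slopes passed. Centring on the median left Acsl5 alone.

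Genes next to the pathway, 126 from a list of its transporters, carriers, peroxisomal proteins, regulators and adjoining routes, had 62 tested, of which 7 rose and 1 fell with butyrate and 0 passed with aspirin (limma), with a median butyrate change of 0.18. Over all tested probe sets 7.78% rose and 3.92% fell with butyrate, with a median of 0.00. By list, the median butyrate change was 0.62 for the peroxisome and 0.56 for branched-chain amino acid breakdown (11 tested in each). Both lay near the members' 0.55. In the other tested lists it ran from -0.13 (monocarboxylate entry and short-chain activation, 3 tested) to 0.46 (carnitine supply, 2 tested). Slc27a1, a fatty acid transport protein, read -139 and 6.1 untreated, 1057, 1952, 2855, 2011 and 1818 with butyrate and 297, 20.7, 185, 483 and 689 with aspirin. Every butyrate array was above every untreated and aspirin array, with 1057 the lowest butyrate and 689 the highest aspirin reading. Slc27a1 rose by at least 4.34 ± 0.62 with butyrate (log2, limma adjusted p = 0.00128). Slc25a20, which exchanges carnitine esters between the Cpt enzymes, rose by 1.38 ± 0.37 (adjusted p = 0.0303), and Bsg, the chaperone of the monocarboxylate transporters that admit butyrate, by 0.52 ± 0.16 (adjusted p = 0.048).

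In the peroxisome list 2 of 11 tested genes rose and 1 fell with butyrate, beside the 7.78% and 3.92% of all probe sets. Catalase (Cat) rose by 1.96 ± 0.51 (limma adjusted p = 0.0281) and Abcd3, a membrane transporter, by 1.15 ± 0.31 (adjusted p = 0.0288). Pex2, which serves import of matrix proteins, read 1225 and 1164 untreated, 595, 461, 473, 390.4 and 311 with butyrate and 983, 1039, 1146, 1052 and 972 with aspirin, with butyrate below all others. It fell (log2 -1.45 ± 0.27, adjusted p = 0.00558), and its second probe set by log2 -1.26 (adjusted p = 0.0351). Idh1, an isocitrate dehydrogenase of cytosol and peroxisomes, rose by 1.86 ± 0.45 (adjusted p = 0.0194), and Pdk2, a pyruvate dehydrogenase kinase, by 1.36 ± 0.41 (adjusted p = 0.0488). Of 9 tested regulators 0 passed, and none of the ketogenesis genes was tested. Among 11 branched-chain amino acid genes 0 passed by their brightest probe set, while dimmer ones of Ivd and Bckdha rose, as did one of Pex11a. The Ivd calls were kept in 11 and 8 of 12 fits with an array left out, that of Bckdha in 5 and that of Pex11a in 3. By their brightest probe sets Slc27a1 and Pex2 kept their calls in all 12 fits with an array left out, and the second Pex2 probe set in 6. Slc25a20 and Idh1 kept theirs in 8 of 12, Cat and Abcd3 in 7, Pdk2 in 3 and Bsg in 1, and each of these was lost without an untreated array, with adjusted p from 0.235 for Pdk2 to 0.354 for Abcd3 (limma).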

How the data were processed

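The 12 arrays were read from 1 table of the authors' deposited values, an intensity per probe set on a linear scale. Its software, background step and scaling were not given in the sources used here. Array means after trimming 2% of values at either end were equal at 1000, so no further normalization was applied. Identical values between any pair of arrays were at most 0.114%, and the number of arrays limits the precision. Of 8799 rows, 59 control features were left out. Probe sets took the array annotation's gene: 7006 had 1 symbol, 308 several and 1426 none. Values were raised to the absolute 10th percentile of all values (91, log2 6.51) and log2 taken. The 6118 probe sets at or above the 30th percentile of mean log2 (6.54) were tested and 2622 left out. A gene is read by its brightest probe set. "At least" marks a change whose lower group had a floored array (for untreated, 1 or more of 2, otherwise 3 or more of 5) with no overlap.

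limma 3.58.1 in R 4.3.3 (lmFit, then eBayes with a variance trend) compared each treatment with untreated on all 12 arrays (9 residual degrees of freedom), the treatments with hour as a block on the 10 treated arrays (4), and slopes over log2 hours (6). P-values are Benjamini-Hochberg adjusted over all tested probe sets, with a threshold of 0.05. The fits were also run on simulated data with independent noise and planted changes. That noise held no time trend, floor or error shared within an array. The simulation therefore checks the code, and not whether hours can serve as replicates. Every member on the array is named, with values on every array for members called in at least 1 of the first 5 comparisons and for the largest butyrate change of a role with none. Called neighbour genes are named, at most 3 per role. Members, lists and tests were chosen with earlier results of these data known. The alternatives varied the floor, scaling, filter, variance trend, summary of probe sets, time term, arrays in the fit, and each array left out in turn.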

Additional observations from a re-analysis of the deposited data

Results flagged for a closer look

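Of 54 groups of 5 arrays (27 members, 2 treatments), 5 had an array set apart from the rest. Its gap to its nearest neighbour took an unusually large share of the group's range on the log2 scale. For independent readings from a single normal distribution, chance gives this in about 1 in 20 groups. The 5 arrays of a group are different hours of treatment, so that rate need not hold here. The 2 h butyrate array was low for Acsl3 (share 0.82) and for Etfdh (0.731). The 24 h butyrate array was low for Ech1 (0.925), and the 2 h aspirin array was high for Ech1 (0.726) and low for Acot7 (0.747). The slope over log2 hours of the dimmer Acsl5 probe set differed between the drugs, at -0.53 for butyrate minus aspirin by limma's test of the difference (adjusted p = 0.0225; 0.123 without the 2 h butyrate array and called in 6 of 10 fits with an array left out). Causes were not tested.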

How the results depend on the processing

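Under the alternatives run, no called value of a member changed sign. With butyrate against untreated (9 members called), 4 were called with time as a factor, 4 with only the 2 groups in the fit, 0 on the 2 and 24 h arrays alone, and 4 to 12 with 1 array left out; the other alternatives gave 6 to 12. With aspirin against untreated (0), leaving out 1 array gave 0 to 1, the 1 being Acadm without the untreated 24 h array. Between the drugs (13), 6 were called with the floor at 2 times its value, 8 after quantile normalization, 8 after median centring (7 of them shared), 6 with no filter, and 3 to 13 with 1 array left out. For butyrate slopes (4) there were 2 with the floor at 2 times or 0.5 times its value, 2 with a generalised logarithm and no floor, 1 after median centring, 2 with no filter, 0 with hours on a linear scale, and 0 to 4 with 1 array left out. For aspirin slopes (1) there were 0 with the higher floor, 0 after median centring, 0 with no filter, 0 with no variance trend, 0 with linear hours, and 0 to 1 with 1 array left out, the 1 being Cpt1a without the 6 h aspirin array, Hadha without the 24 h butyrate array and Acadl without the 2 h aspirin array. For slope differences (0), counting any probe set gave 1, averaging probe sets gave 1 (both Acsl5), and leaving out 1 array gave 0 to 1 (Acadl without the 2 h aspirin array). The cause was not tested.

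Leaving out an untreated array leaves 1, which is then assumed to vary like the other groups. Median centring moved the median change of all tested probe sets to -0.14 with butyrate, 0.13 with aspirin and -0.22 between the drugs, and the members' medians to 0.41, 0.38 and 0.34. It turned the share of higher calls over all probe sets from 53.3% to 22.4% for butyrate slopes and from 80.2% to 31.1% for aspirin slopes (59.1% after quantile normalization). All probe sets called with butyrate against untreated fell from 716 to 306 with only the 2 groups in the fit, 317 with time as a factor and 0 on the 2 and 24 h arrays. Signal near the floor limits dim members.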
